A study of Arabidopsis thaliana with 36 samples.

Results

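A group of 195 genes was lower on salt than under mock conditions after 1 h and higher on salt after 8 h in the lower roots of wild-type Arabidopsis seedlings. The genes were selected on the wild-type values alone, from CPM, the count of a gene per 1000000 counts of its library. A member had a log2 ratio of mean NaCl to mean mock CPM, with 0.5 added to each mean, of at most -0.6 at 1 h and at least 0.6 at 8 h, and a mean of at least 3 CPM over the 12 wild-type libraries. Of the 28775 genes counted, 16701 reached that mean, so the members were 1.17% of them. The wild-type values that chose the members are given as a description only. The tests compare mutant libraries, which the selection did not use, though fits within a time point also used the wild-type libraries to estimate the spread.

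The wild-type was Landsberg *erecta* (L*er*). The quintuple mutant *della5x* carries *rgl3-4*, *rgl2-1*, *rgl1-1*, *rga-t2* and *gai-t6* and so has mutations in all 5 DELLA genes, whose proteins restrain gibberellin (GA) responses. The *gai* mutant holds a form of GAI, a DELLA, that resists degradation, and *ga4* lacks activity late in the synthesis of GA. Seedlings were 5 d old and were placed on 140 mM NaCl or on mock medium, for 1 h or 8 h in L*er* and *della5x* and for 8 h in *gai* and *ga4*. Each of the 12 groups had 3 libraries, 36 in all, and each library was made from the lower 1 cm of the roots of 50 to 100 pooled seedlings. The labels do not say whether the replicates came from separately grown batches of seedlings, so the P values measure only the spread between these libraries. The roots were measured whole, so that fewer cells of a type and less RNA per cell cannot be told apart for any gene.

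Roots moved to high salt are known to pass through phases, in which growth first stops and later resumes at a lower rate, and DELLA proteins are among the factors that hold growth back under stress. Among the proteins encoded by the members, transporters carry nitrate, sulphate, phosphate and potassium into the root. Wall proteins such as extensins and xyloglucan endotransglucosylase/hydrolases (XTHs) build and remodel the growing wall. Acyltransferases, cytochromes P450 of family 86 and ABC transporters build cutin and suberin, the lipid polymers that seal root surfaces.

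The depth was 16772984 to 23811804 counts per library. The members took 0.394 to 1.16% of the counts in the libraries of 1 h other than 1 L*er* mock library, 0.686 to 0.938% in the mock libraries of 8 h and 1.57 to 2.35% in the NaCl libraries of 8 h. That exception, replicate 1 of the L*er* mock group of 1 h, gave 1.54% of its counts to the members, against 0.918% and 0.695% in the other replicates. Without it the same rule chose 133 genes, 123 of them among the 195, so that 72 members depend on this library, and 82 members met the rule whichever L*er* library was left out. Among the 72 are genes named below, such as AT5G38910, AT5G65980, *TAT3*, *FAMT*, *GSTF6*, *LAC5*, *RHS19*, *HSP17.6A*, *HSP90.1*, *UPM1*, *TRP1* and *MYB45*. Of 27 root cell type and shoot markers, the root markers other than a cortex marker had counts in every library. The xylem markers *HP6*, *NAC101* and *VND7* were as low as 0.160, 0.424 and 0.594 CPM. The shoot marker *CAB2* was at 0 to 0.565 CPM, but the other shoot markers, *RBCS1A* and *CAB1*, had 1.57 to 54.7 CPM and 3.11 to 82.9 CPM. *RBCS1A* fell at 8 h in *della5x*, *gai* and *ga4* (-1.996, -1.303 and -1.71, edgeR adjusted P = 0.0012, 0.0085 and 0.0015), and its part in the results of the members was not tested. That cortex marker, *CO2* (AT1G62500), ran from 0 to 6.96 CPM, with a median of 0.714 CPM. Of the 26 markers tested 2 rose and 2 fell at 1 h in *della5x*, and 5 rose and 9 fell, 4 rose and 9 fell, and 6 rose and 6 fell at 8 h in *della5x*, *gai* and *ga4*. Of all 20355 genes tested at 8 h, 2795, 2166 and 2168 rose and 1838, 1700 and 1833 fell. *CASP1* (endodermis), *SHR* and *PHO1* (stele), *CO2*, *CYCB1;1* (cell division) and *RBCS1A* fell at 8 h in every mutant. *SUC2* (phloem), *NAC070* (root cap) and *WOX5* (quiescent centre) rose in every mutant. The part of these shifts in the results of the members was not tested.

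In L*er* the members had a median log2 ratio of -1.01 at 1 h, with a lowest value of -4.11, and of 1.15 at 8 h, with a highest value of 6.397. Their mean level over the L*er* libraries had a median of 17.96 CPM and ran from 3.07 to 1548 CPM. Just inside the limit at 1 h were *PHT3;2*, *UPM1* and AT2G42360, all at -0.60, and just outside were *IAA1*, AT3G13650 and *DREB26*, at -0.599 each. Just inside the limit at 8 h were *NAC099* (0.60), *RHS19* (0.60) and *OPT7* (0.61), and just outside were *HA2* (0.598), AT2G03360 (0.58) and *AGP2* (0.57). The level limit had AT5G41730 (3.07 CPM), *FAMT* (3.14 CPM) and AT2G43590 (3.19 CPM) inside it and AT5G04120 (2.996 CPM), *TIR* (2.995 CPM) and *CBL7* (2.895 CPM) outside it. The level of the members under mock conditions in L*er* was lower at 8 h than at 1 h for 156 of the 195 genes (median log2 ratio -0.37), and on NaCl it was higher at 8 h for 191 (median 1.88).

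The first question was whether roots without DELLA proteins made the same early change. In *della5x* at 1 h, 26 of the 195 members (13.3%) fell on NaCl, where a call means an adjusted P under 0.05 by edgeR's quasi-likelihood test over all genes and a log2 fold change beyond 0.5, and 0 rose. Over all 20073 genes tested 3.52% fell. The median log2 fold change of the members was -0.62, against -0.0006 over all genes, and 172 members had a negative value. At an unadjusted P under 0.05, 67 members were lower and 0 were higher, and DESeq2 called 44 lower and 0 higher. All 3 NaCl libraries lay below all 3 mock libraries for 75 members (38.5%), against 13.2% of all genes tested. The 4 members with a log2 fold change above 0.5 were *UMAMIT14* (1.32), *NRT2:1* (0.82), *HSP17.6A* (0.69) and *CBP60G* (0.64), and none of them passed the test. Replicate 2 of the *della5x* NaCl libraries of 1 h stood above the other 2 for these genes, with a median log2 deviation from the group mean of 0.40 against -0.01 and -0.34, and without it 51 members fell. Without replicate 1 of the *della5x* mock libraries of 1 h 17 fell.

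The members with the smallest P at 1 h in *della5x* were *DGR1*, *EDA11* and AT2G43390. *DGR1* (AT1G80240, chr1:30171357-30173109), which encodes a wall protein of the DUF642 family, had 55.1, 81.8 and 52.95 CPM under mock conditions and 18.1, 10.6 and 18.5 CPM on NaCl. Its 3 NaCl libraries were all far below its mock libraries, and the log2 fold change was -2.01 ± 0.27 (SE, adjusted P = 7.2e-04), by edgeR. At 8 h the same gene had 71.7, 56.02 and 65.6 CPM under mock conditions and 106, 115 and 77.6 CPM on NaCl in *della5x*. This log2 fold change of 0.68 ± 0.19 (SE, adjusted P = 0.0082), by edgeR, was a call that was lost without replicate 2 of these NaCl libraries. *EDA11*, of the C1 domain family, and AT2G43390, an uncharacterised protein, fell at 1 h, with log2 fold changes of -1.21 ± 0.20 and -1.604 ± 0.27 (SE) and an edgeR adjusted P of 0.0025 and 0.0029.

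After 8 h the members rose in all 3 mutants. In *della5x* 140 of the 195 (71.8%) rose, against 13.7% of all 20355 genes tested, in *gai* 122 (62.6%), against 10.6%, and in *ga4* 121 (62.1%), against 10.7%, by edgeR. None of the members fell in any of the mutants, and the median log2 fold changes were 1.08, 0.95 and 0.90, with values over all genes between -0.0092 and 0.0035. At an unadjusted P under 0.05, 150, 139 and 129 members were higher and 0 were lower, and DESeq2 called 140, 127 and 123 higher and 0 lower. All 3 NaCl libraries lay above all 3 mock libraries for 135, 141 and 118 members of *della5x*, *gai* and *ga4* (69.2, 72.3 and 60.5%), against 19.5, 20.2 and 18.5% of all genes. The opposite order was found for *ALD1* in *gai* and for *PERK12* in *ga4*. The 3 comparisons have no libraries in common, but they come from 1 fit with a shared estimate of the spread. Across the 195 genes the responses had a Pearson's r of 0.82 between *della5x* and *gai*, 0.78 between *della5x* and *ga4* and 0.80 between *gai* and *ga4* (Spearman's rho 0.72, 0.66 and 0.68), as a description across genes, which are not independent replicates.

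A set of 100 members rose in all 3 mutants, 27 rose in 2, 29 in 1 and 39 in none. The 100 genes had a median mean level of 37.0 CPM in L*er*, against 7.37, 9.42 and 8.94 CPM for the genes called in 2, in 1 and in none, and the part of the level in the calls was not tested. Among the 29 genes called in 1 mutant, 18 were called in *della5x*, 6 in *gai* and 5 in *ga4*, without a test of the difference. The smallest P at 8 h had AT1G56320, *LAC5* and *HA4* in *della5x*, and *XTH19*, *LAC5* and AT1G56320 in *gai* and *ga4*. AT1G56320 (chr1:21085548-21086499), an uncharacterised protein, had 25.4, 28.4 and 30.02 CPM under mock conditions and 89.01, 105 and 96.9 CPM on NaCl in *della5x*. Its log2 fold change was 1.84 ± 0.10 (SE, adjusted P = 2.6e-11) in *della5x*, 1.44 ± 0.10 (SE, adjusted P = 1.1e-09) in *gai* and 1.61 ± 0.10 (SE, adjusted P = 2.2e-10) in *ga4*, by edgeR. The NaCl and mock libraries of AT1G56320 did not overlap in any mutant.

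The change of the response with time could be tested in *della5x*, the mutant sampled at both times. The response was larger at 8 h than at 1 h for 98 of the 195 members (50.3%), against 3.35% of all 20177 genes tested, and it was smaller for 0. The median difference in log2 fold change was 1.78 and it was positive for 193 members. The exceptions were AT5G17040 (-0.20) and *NAC099* (-0.18). DESeq2 called 127 larger and 0 smaller, and at an unadjusted P under 0.05 edgeR had 150 larger and 0 smaller. The number was 150 without replicate 2 of the *della5x* NaCl libraries of 1 h and 64 without replicate 1 of the *della5x* mock libraries of 8 h. In 170 members the *della5x* response was negative at 1 h and positive at 8 h, in 76 it was beyond the 0.6 of the rule in both directions, and 19 both fell at 1 h and rose at 8 h by edgeR's test. Of these 19, 15 also rose in *gai* and *ga4*. The sizes of the *della5x* responses at 1 h and 8 h were hardly related across the members (Pearson's r 0.11, Spearman's rho 0.13, n = 195 genes).

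**Figure D1:**
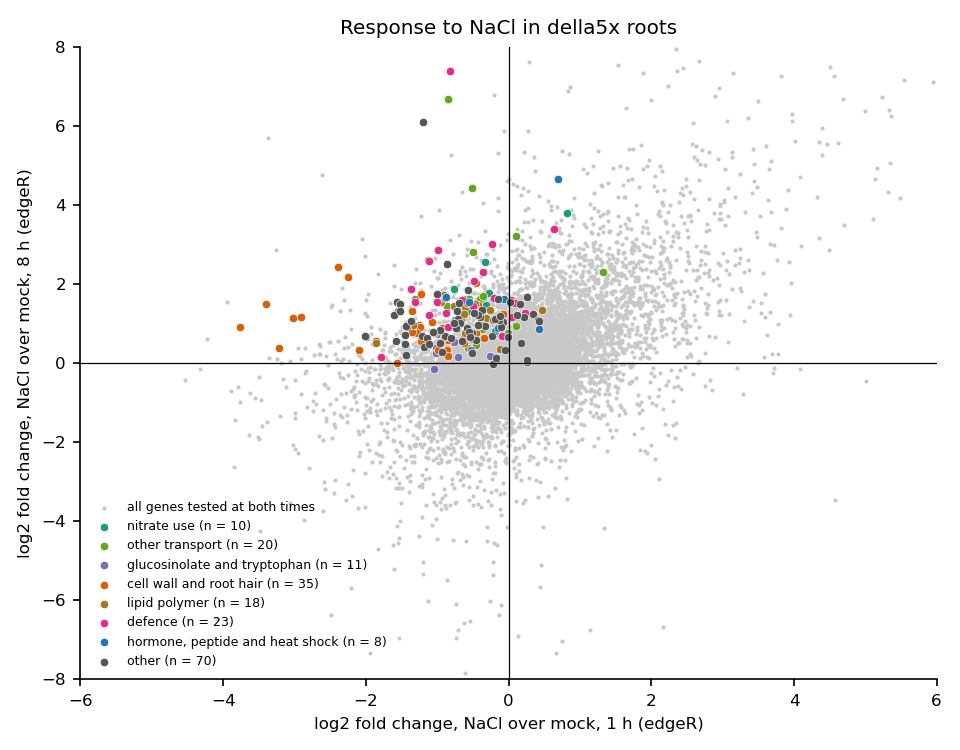
Log2 fold change on NaCl in *della5x* at 1 h (x axis) and at 8 h (y axis) by edgeR, for the 195 members coloured by role and for all 19878 genes tested at both times in grey (51 of them lie beyond the axes). Most members, 170 of 195, lie in the upper left, below 0 at 1 h and above 0 at 8 h, and the cell wall and root hair genes reach farthest to the left.

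To see where the group differs from genes that met 1 of the wild-type limits, it was set beside the 1282 other genes at or below -0.6 at 1 h in L*er* and the 1720 other genes at or above 0.6 at 8 h. At 8 h, 89.1% of the other late genes rose in *della5x*, 78.3% in *gai* and 79.7% in *ga4* (medians 1.14, 0.98 and 0.97), beside 71.8, 62.6 and 62.1% of the members. At 1 h those late genes were mostly higher on NaCl in *della5x*, with 30.7% called higher, 0.175% lower and a median of 0.55. The other early genes were lower at 1 h in *della5x* in 35.7% of cases (median -0.72), beside 13.3% of the members (median -0.62). At 8 h 2.5% of those early genes rose and 35.4% fell in *della5x*. A larger response at 8 h than at 1 h was called for 8.89% of the early and 17.1% of the late genes, beside 50.3% of the members. The differences between these sets follow in part from the selection and were not tested.

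**Figure D2:**
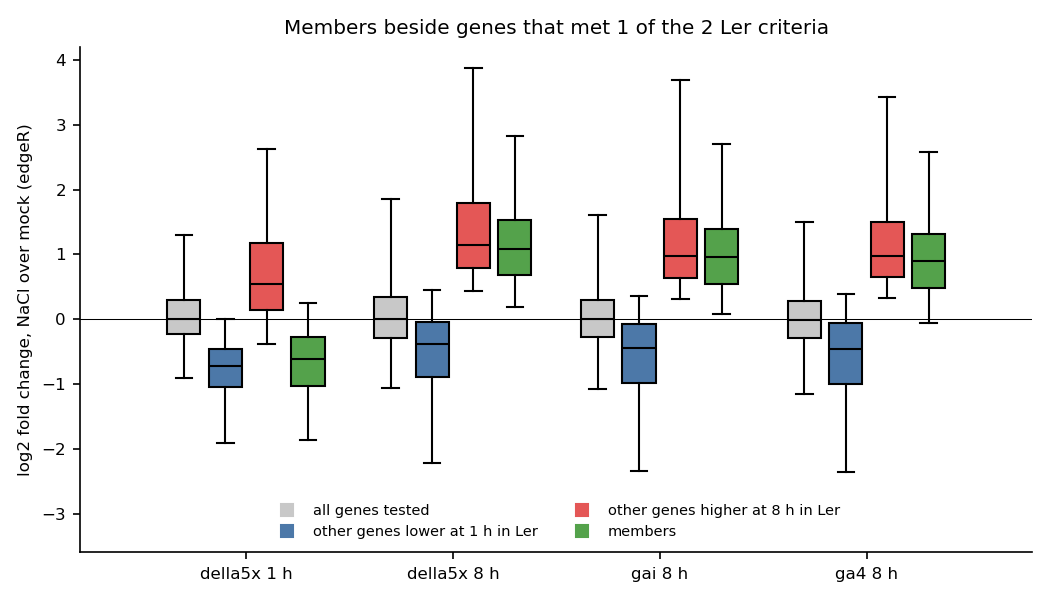
Log2 fold change on NaCl by edgeR in each mutant for all genes tested, for the other genes that were lower at 1 h in L*er*, for the other genes that were higher at 8 h in L*er* and for the members. Boxes give the quartiles and the median, and whiskers the 5th to the 95th percentile. The median of the members is -0.62 in *della5x* at 1 h and between 0.90 and 1.08 at 8 h.

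Whether the 3 mutants differed in the size of the late response was tested on the difference of their responses. No member differed between *gai* and *della5x*, between *ga4* and *della5x* or between *gai* and *ga4* by edgeR's adjusted P, when 0.0295%, 0% and 0% of all genes did. At an unadjusted P under 0.05, *gai* had 4 larger and 10 smaller responses than *della5x*, *ga4* had 6 larger and 10 smaller than *della5x*, and *gai* had 5 larger and 13 smaller than *ga4*. DESeq2 called *XTH19* larger in *gai* than in *della5x* (difference of log2 fold changes 0.73, adjusted P = 0.025, against 0.74 and an adjusted P of 0.20 by edgeR) and called no member in the other comparisons. The middle 50% of the members had a difference of -0.34 to 0.16 between *gai* and *della5x*, of -0.39 to 0.14 between *ga4* and *della5x* and of -0.21 to 0.32 between *gai* and *ga4*. These differences are not shown to be absent by a P that misses the threshold.

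Under mock conditions at 8 h, where 192 members could be tested, the mutants differed more often. Between *gai* and *della5x* 13 members were higher and 15 lower in *gai* (14.6%, against 6.63% of all genes), and between *ga4* and *della5x* 10 were higher and 10 lower in *ga4* (10.4%, against 4.58%), by edgeR. *TRP1*, of tryptophan synthesis, was lower in *gai* (-0.89 ± 0.12, SE, edgeR adjusted P = 4.5e-04) and in *ga4* (-0.88 ± 0.12, SE, edgeR adjusted P = 5.2e-04). AT1G30700, a berberine bridge enzyme-like oxidase, was higher in both (0.80 ± 0.13 and 0.93 ± 0.13, SE, edgeR adjusted P = 0.0017 and 6.7e-04). *TRP1* had 31.9, 33.8 and 42.5 CPM in *della5x*, 20.1, 19.7 and 18.6 CPM in *gai* and 19.4, 20.7 and 18.2 CPM in *ga4* under mock conditions, so that the *della5x* libraries were above all the others. The *UMAMIT14* gene encodes a transporter of the family that exports amino acids and *ALMT1* a malate channel. Higher in *gai* were AT3G04320, a Kunitz protease inhibitor (1.19), and *UMAMIT14* (1.496), and lower were *ALMT1* (-1.38) and AT5G38020 (-1.21). In *ga4* the lectin gene AT3G16530 (3.33) and *MYB45* (0.74) were higher, and *CYP705A12* (-2.34) and *XTH19* (-0.64) lower, than in *della5x*. The shoot markers *RBCS1A* and *CAB1* moved in the same comparisons, with log2 differences from *della5x* of 2.68 and 2.42 in *gai* (edgeR adjusted P = 0.0013 and 7.2e-04) and of 1.63 and 1.75 in *ga4* (0.031 and 0.0076), and the part of shoot tissue in these calls was not tested. With 1 library left out, 13 to 31 members differed between *gai* and *della5x*, the fewest without replicate 2 of *gai* and 17 and 15 without replicates 2 and 3 of *della5x*. From 12 to 32 differed between *ga4* and *della5x*, the fewest without replicate 1 and the most without replicate 3 of *ga4*.

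Between *gai* and *ga4* under mock conditions 4 members differed (2.08%, against 0.916% of all genes). These were the root hair wall genes *MOP10* (log2 difference 0.75, edgeR adjusted P = 0.026), *PRP1* (1.27, 0.037) and *EXT13* (0.77, 0.043), which were higher in *gai*, and the cation/proton exchanger gene *CHX16* (-1.70, 0.024), which was lower. Each of these 4 calls was lost without at least 1 of the libraries, and without replicate 3 of the *gai* mock libraries none remained. The 4 root hair markers outside the group, *SHV2*, *RHD6*, *EXPA7* and *PRP3*, had log2 differences of 0.48, 0.40, 0.49 and 0.73 in the same direction (unadjusted P = 0.0011, 0.0060, 8.2e-04 and 9.7e-04), and edgeR's adjusted P did not pass (0.060 to 0.13). Their summed level under mock conditions was 269, 236 and 265 CPM in *gai* and 181, 163 and 165 CPM in *ga4*, without overlap. Markers of other cells moved too. The non-hair marker *GL2* (0.72), the cortex marker *CO2* (1.46) and the shoot marker *RBCS1A* (1.06) were higher in *gai* (unadjusted P = 0.0031, 0.0018 and 0.013). The stele marker *PHO1* was lower (-0.50, unadjusted P = 0.0075). The adjusted P of edgeR did not pass for any of them (0.078 to 0.17). The part of root hair content or of other tissue in the 4 calls was not tested. In *della5x* the mock level at 8 h was above that at 1 h for 12 members and below it for 10 (11.3%, against 2.1% of all genes). Whichever library was left out, 3 of these 22 calls held, with 4 members called without replicate 2 of the libraries of 8 h and 58 by DESeq2. The smallest P among the higher genes had *LACS2* (0.80), *XTH19* (1.64) and *PME2* (1.07), and among the lower genes *GSTF6* (-3.87), AT3G16530 (-2.56) and *MYB45* (-0.90).

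To describe the group by function, each member was given 1 of 8 roles from its annotation, of which 70 genes had none of the first 7. A role is a description, chosen with results of these data known.

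**Figure D3:**
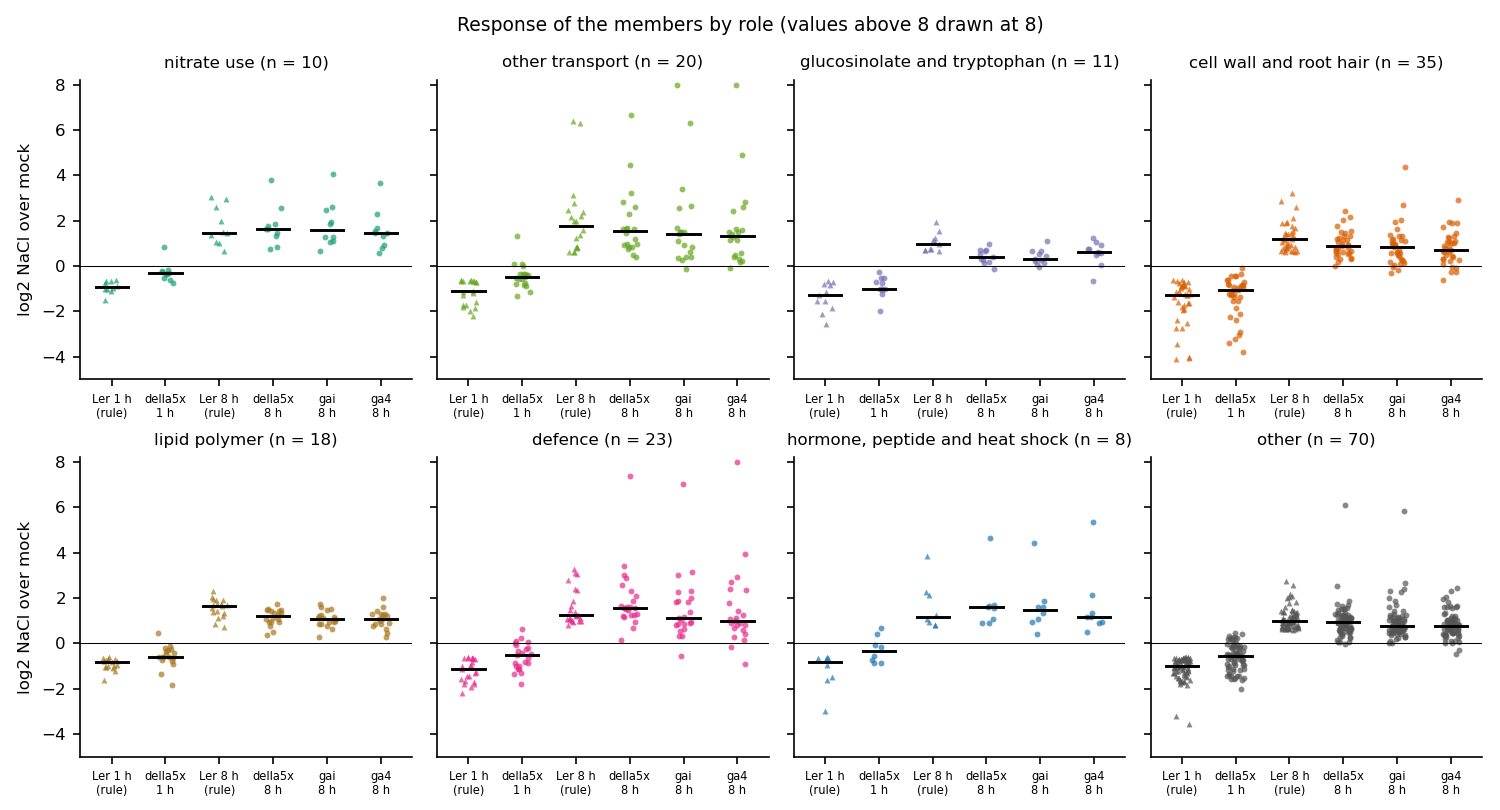
Log2 ratio of NaCl to mock for each member, by role, as the CPM ratio that chose the members in L*er* (triangles) and as edgeR's log2 fold change in the mutants (circles). Horizontal bars are medians. Values above 8, 1 in *gai* and 2 in *ga4*, are drawn at 8. At 1 h in *della5x* the median is lowest for the cell wall and root hair genes (-1.08) and for glucosinolate and tryptophan synthesis (-1.01), and at 8 h it is lowest for the latter (0.38).

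Among the members, those for the uptake and use of nitrate, the main nitrogen source of the root, rose late without exception. All 10 members with this role rose at 8 h in each of the 3 mutants (median log2 fold changes 1.64, 1.57 and 1.44). At 1 h in *della5x* 0 fell by edgeR or DESeq2 (median -0.33), where 1 was lower at an unadjusted edgeR P under 0.05. They included the transporters *NRT2:1* and *NRT1.1*, the NRT2 partner protein *WR3*, the nitrate reductases *NIA1* and *NIA2* and the nitrite reductase *NIR1*. The others were *UPM1*, which makes the sirohaem of nitrite reductase, *G6PD3*, a source of reductant in the plastid, the plastid dicarboxylate carrier *DiT1*, and AT4G35270, a regulator of the RWP-RK family. *NRT2:1* (AT1G08090, chr1:2524023-2526322), the main high-affinity nitrate transporter of roots, had 68.7, 38.9 and 37.7 CPM under mock conditions and 36.2, 15.9 and 19.2 CPM on NaCl in L*er* at 1 h. At 8 h it had 32.1, 48.2 and 77.2 CPM under mock conditions and 668, 307 and 342 CPM on NaCl in L*er*, every NaCl library higher. Its *della5x* libraries of 1 h overlapped, with 37.6, 32.3 and 19.5 CPM under mock conditions and 36.1, 111 and 10.3 CPM on NaCl (log2 fold change 0.82 ± 0.65 (SE, adjusted P = 0.47), edgeR). Its *della5x* values at 8 h were 25.3, 28.9 and 68.6 CPM under mock conditions and 503, 401 and 740.4 CPM on NaCl. It had 12.1, 16.9 and 13.96 CPM under mock conditions and 257, 200.2 and 248 CPM on NaCl in *gai*, and 13.8, 12.5 and 57.7 CPM under mock conditions and 354, 372 and 340.3 CPM on NaCl in *ga4*. At 8 h every NaCl library was several times above every mock library of its genotype. The log2 fold changes were 3.79 ± 0.50, 4.05 ± 0.52 and 3.67 ± 0.51 (SE), with edgeR adjusted P of 5.1e-06, 3.8e-06 and 9.0e-06.

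*NIR1* (AT2G15620, chr2:6810395-6812941) encodes the plastid enzyme that turns nitrite into ammonium. In *della5x* it had 356, 335 and 267 CPM under mock conditions and 120.3, 333 and 111 CPM on NaCl at 1 h, where 1 NaCl library lay among the mock libraries. The log2 fold change was -0.76 ± 0.39 (SE, adjusted P = 0.24), by edgeR. At 8 h it had 179, 240.2 and 295 CPM under mock conditions and 847, 772 and 905 CPM on NaCl, with no overlap, and a log2 fold change of 1.87 ± 0.22 (SE, adjusted P = 9.3e-07), by edgeR. The difference between the times was 2.63 ± 0.52 (SE, adjusted P = 0.014), by edgeR. *NIA2* rose by 2.57 ± 0.24, 2.58 ± 0.24 and 2.30 ± 0.24 (SE) in *della5x*, *gai* and *ga4* on the log2 scale at 8 h, with edgeR adjusted P of 3.9e-08, 4.3e-08 and 2.1e-07. Its relative *NIA1* rose by 1.63, 2.48 and 1.45, and its edgeR call in *ga4* (adjusted P = 0.039) held in 2 of 6 fits with 1 library left out, while the call in *della5x* was lost without replicate 1 of the *della5x* mock libraries. A larger response at 8 h was called in *della5x* for 8 of the 10 genes, all but *NRT2:1* (difference 2.97 ± 0.95, SE, edgeR adjusted P = 0.097) and *NIA1* (2.23 ± 0.71, SE, 0.096). Under mock conditions *gai* had less *NRT1.1* (-1.24), AT4G35270 (-0.70), *NIR1* (-0.78) and *G6PD3* (-0.67) than *della5x*, the 4 nitrate genes called there, each in 2 or 3 of 6 fits with 1 library left out.

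Among 30 genes of nitrate uptake and assimilation listed from annotation, the 10 members and 20 others, 28 could be tested at 8 h. Of these 19 rose and 0 fell in *della5x*, 16 rose and 0 fell in *gai*, and 18 rose and 1 fell in *ga4*. Of the 18 tested that were not members 9, 6 and 8 rose in *della5x*, *gai* and *ga4*, and 0, 0 and 1 fell. Over all genes tested 13.7, 10.6 and 10.7% rose. At 1 h 0 rose and 1 fell of the 27 listed genes tested in *della5x*. Genes of the list that rose at 8 h but were not members because their L*er* ratio at 1 h was above -0.6 included the glutamate synthase *GLT1* (L*er* -0.18 at 1 h and 1.17 at 8 h) and the ferredoxin reductase *RFNR2* (-0.56 and 1.398). The LOB domain genes *LBD37*, *LBD38* and *LBD39*, which encode repressors of nitrogen responses, met the early limit in L*er* but not the late one, with L*er* log2 ratios of -0.04, -0.46 and -0.64 at 8 h.

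**Figure D4:**
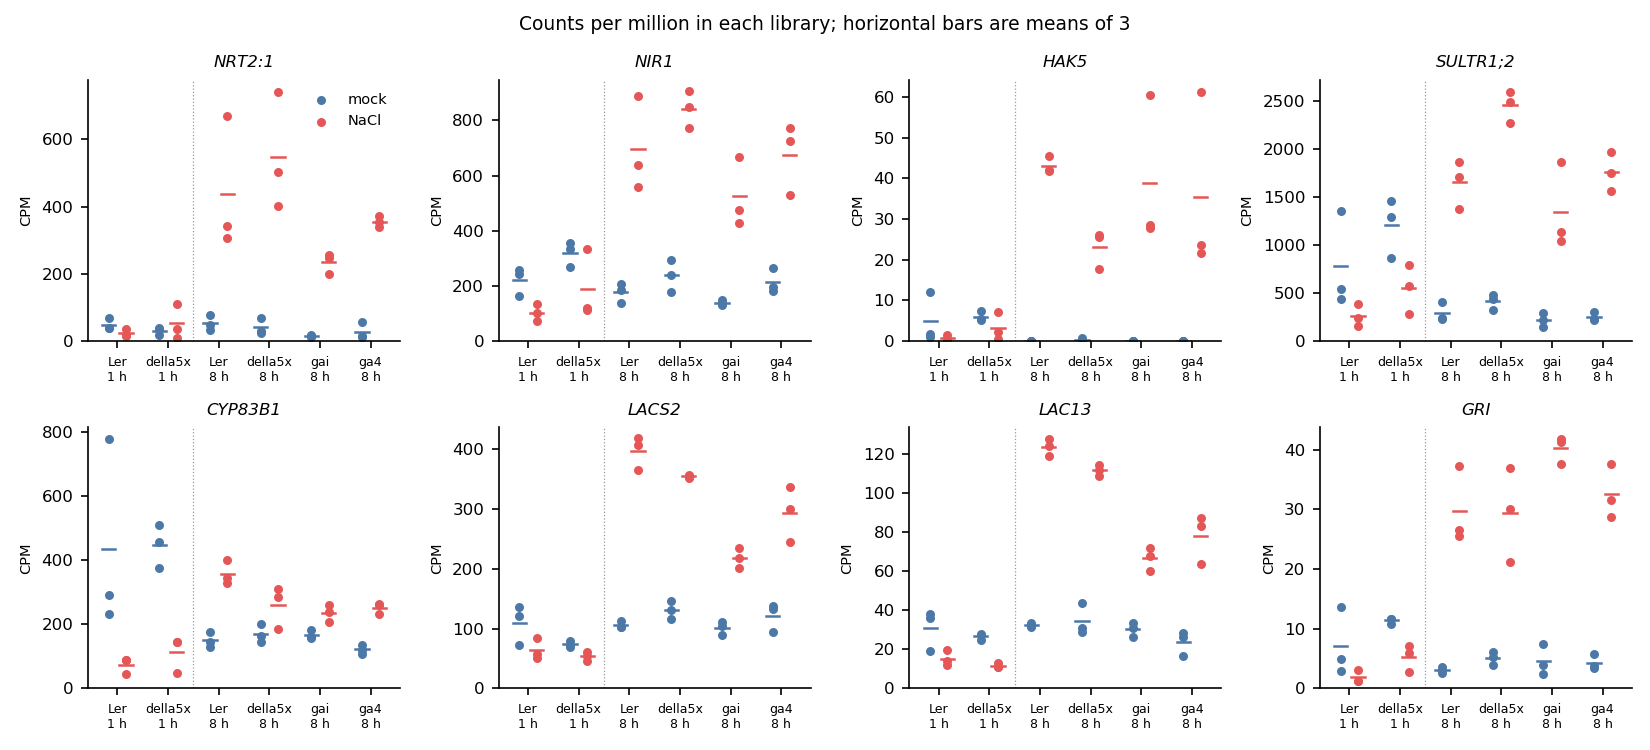
CPM in each of the 36 libraries for 8 members of 6 roles, with mock libraries in blue and NaCl libraries in red, bars at the mean of 3 libraries and a dotted line between 1 h and 8 h. In *NIR1*, *SULTR1;2*, *LACS2* and *LAC13* all NaCl libraries of 8 h lie above all mock libraries of the same genotype, and *HAK5* is at or near 0 in the mock libraries of 8 h.

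Among the other 20 transport genes, the potassium importer *HAK5*, the sulphate importer *SULTR1;2* and the phosphate importer *PHT1;4* rose late in all 3 mutants. Of the 20 genes 18 rose at 8 h in *della5x*, 15 in *gai* and 14 in *ga4*, 12 of them in all 3 (medians 1.53, 1.42 and 1.34). At 1 h in *della5x* 0 fell by edgeR (median -0.47), where 4 were lower at an unadjusted P under 0.05 and DESeq2 called 1. *HAK5* (AT4G13420, chr4:7796782-7802251), the high-affinity potassium transporter, had 0.0529, 0 and 0 CPM under mock conditions and 42.1, 45.4 and 41.8 CPM on NaCl in L*er* at 8 h. In *della5x* at 8 h the values were 0, 0 and 0.667 CPM under mock conditions and 26.2, 17.8 and 25.6 CPM on NaCl. The values were 0, 0 and 0 CPM under mock conditions and 27.7, 28.5 and 60.5 CPM on NaCl in *gai*, and 0, 0 and 0.105 CPM under mock conditions and 23.6, 21.6 and 61.2 CPM on NaCl in *ga4*. The mock libraries of 8 h were at or near 0 in all genotypes, whereas those of 1 h had 12.04, 1.65 and 0.942 CPM in L*er* and 5.06, 7.40 and 5.48 CPM in *della5x*. In *della5x* the log2 fold change at 8 h was 6.67 ± 0.65 (SE, adjusted P = 1.3e-07), by edgeR. In *gai* no mock count was recorded, and against a limit of 3 counts over the group the NaCl level was at least 725-fold higher. In *ga4* the ratio was 1040 on 2 mock counts, with an exact 95% interval of 287 to 8593 that covers counting error only.

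*SULTR1;2* (AT1G78000, chr1:29327515-29333220), the main sulphate importer of roots, was among the most abundant members. It had 1291, 1454 and 865 CPM under mock conditions and 571, 792 and 286 CPM on NaCl in *della5x* at 1 h, with no overlap, but the log2 fold change of -1.13 ± 0.49 (SE, adjusted P = 0.17) did not pass edgeR's test. The values at 8 h were 327, 441 and 481 CPM under mock conditions and 2492, 2274 and 2595 CPM on NaCl in *della5x*. It rose by 2.61 ± 0.26, 2.63 ± 0.26 and 2.83 ± 0.26 (SE) in *della5x*, *gai* and *ga4* on the log2 scale (edgeR adjusted P = 7.3e-08, 8.5e-08 and 3.3e-08). Its response was larger at 8 h than at 1 h by 3.74 ± 0.46 (SE, adjusted P = 0.0015), by edgeR. *SULTR1;3*, a sulphate transporter gene of the same family, was not called in any mutant at 8 h (0.39 in *della5x*, -0.15 in *gai* and 0.33 in *ga4*, edgeR adjusted P = 0.36, 0.77 and 0.47). *PHT1;4*, a phosphate importer, rose by 1.45, 1.405 and 1.48 in *della5x*, *gai* and *ga4*, with edgeR adjusted P of 0.0025, 0.0039 and 0.0024, and its call in *gai* was lost without replicate 3 of the *gai* NaCl libraries. *HA4*, a plasma membrane proton pump of the family that energises such carriers, rose by 1.63 ± 0.14 (SE) in *della5x* (edgeR adjusted P = 6.6e-09), 1.44 in *gai* and 1.64 in *ga4*. AT5G65980, of the auxin efflux carrier family, had 0.736, 2.61 and 18.1 CPM under mock conditions and 146, 135 and 175 CPM on NaCl in *della5x* at 8 h, a log2 fold change of 4.44 ± 0.91 (SE, adjusted P = 7.0e-04), by edgeR. The aquaporin family gene *NIP4;2* rose by 1.61, 1.69 and 1.61 in the 3 mutants (edgeR adjusted P = 3.3e-05, 3.2e-05 and 4.6e-05). The malate channel gene *ALMT1* rose in *della5x* (0.96 ± 0.26, SE, edgeR adjusted P = 0.0072), while its values in *gai* (0.28 ± 0.29, SE) and *ga4* (-0.08 ± 0.27, SE) did not pass. The call in *della5x* was lost without replicate 3 of its NaCl libraries.

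Genes for indole glucosinolates, defence compounds made from tryptophan, and for tryptophan itself rose late in some steps of the pathway and not in others. Of the 11 members 5 rose at 8 h in *della5x*, 4 in *gai* and 8 in *ga4* (medians 0.38, 0.32 and 0.60), beside a median of 0.96 in L*er*, which the rule had set to at least 0.6. At 1 h in *della5x* the median was -1.01 and 1 gene fell, *CYP83B1* (AT4G31500, chr4:15273410-15275404), the P450 that commits indole-3-acetaldoxime to glucosinolates. *CYP83B1* had 455, 374 and 510.1 CPM under mock conditions and 144, 144 and 47.9 CPM on NaCl in *della5x* at 1 h, with all NaCl libraries lower. The log2 fold change was -1.99 ± 0.51 (SE, adjusted P = 0.028), by edgeR, which was called in 2 of 6 fits with 1 library left out. Late values were 145, 163 and 199.6 CPM under mock conditions and 284, 309 and 184 CPM on NaCl, where 1 NaCl library lay among the mock libraries. The late log2 fold changes were 0.67 ± 0.17, 0.51 ± 0.17 and 1.07 ± 0.17 (SE) in *della5x*, *gai* and *ga4*, with edgeR adjusted P of 0.0036, 0.025 and 4.6e-05. The call in *gai* was kept in 2 of 6 such fits. *CYP79B2*, which makes the acetaldoxime from tryptophan, rose in all 3 mutants (0.97, 1.11 and 1.25, edgeR adjusted P = 0.0011, 3.6e-04 and 1.0e-04), as did the sulphotransferase *SOT16* of the last step (0.73, 0.65 and 0.94). *CYP79B3*, the relative of *CYP79B2*, rose in *ga4* (0.77) and had 0.38 in *della5x* and -0.06 in *gai*. Of 33 listed genes of the pathway, 10 of them members, 10 rose and 2 fell at 8 h in *della5x*, 7 rose and 2 fell in *gai*, and 12 rose and 2 fell in *ga4*. Of the 23 that were not members 5, 3 and 4 rose in *della5x*, *gai* and *ga4*, and 2 fell in each. Over all genes tested 13.7, 10.6 and 10.7% rose in these mutants. At 1 h 1 of the 33 rose and 3 fell in *della5x*. Known MYB activators of the pathway were not members, since *MYB51*, *MYB122* and *MYB34* had L*er* log2 ratios of 1.36, 1.11 and -0.08 at 1 h.

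Genes for cutin, suberin and related lipids rose late in all 3 mutants. Of the 18 members 15 rose at 8 h in each mutant, and the 15 were the same genes in all 3 (medians 1.18, 1.09 and 1.08). In *della5x* at 1 h 2 fell, the suberin transporter gene *ABCG20* (-1.35 ± 0.26, SE, edgeR adjusted P = 0.0064) and the GDSL lipase gene AT4G26790 (-1.85 ± 0.35, SE, edgeR adjusted P = 0.0062), and the median was -0.60. *LACS2* (AT1G49430, chr1:18290942-18295905), a long-chain acyl-CoA synthetase of cutin synthesis, had 73.2, 68.3 and 79.6 CPM under mock conditions and 53.4, 46.4 and 60.9 CPM on NaCl in *della5x* at 1 h. The 8 h libraries had 117, 132 and 145 CPM under mock conditions and 355, 356 and 352 CPM on NaCl. Mock and NaCl libraries did not overlap at either time, and the response was larger at 8 h than at 1 h by 1.95 ± 0.16 (SE, adjusted P = 2.9e-04), by edgeR. *LACS2* rose at 8 h by 1.48, 1.12 and 1.29 in *della5x*, *gai* and *ga4*, and the omega-hydroxylase gene *CYP86A4* by 1.73, 1.61 and 1.98. The glycerol-3-phosphate acyltransferase gene *GPAT6* rose by 1.13, 0.87 and 0.85. The remaining members were mainly GDSL-type esterases, with AT2G23540 at 1.401, 1.24 and 1.296. Not called in any mutant were AT4G22610, AT4G26790 and *CDEF1*, a cutinase gene. Of 23 listed genes of cutin and suberin monomers, 4 of them members, 22 could be tested, and 20 rose in *della5x* and 19 each in *gai* and *ga4* at 8 h, with 0 lower, while at 1 h 1 fell and 0 rose. Of the 18 tested that were not members 16 rose at 8 h in *della5x* and 15 each in *gai* and *ga4*, and at 1 h 0 fell. Over all genes tested 13.7, 10.6 and 10.7% rose at 8 h in *della5x*, *gai* and *ga4*, and 3.52% fell at 1 h in *della5x*. Among the list genes that were not members, *GPAT5*, *FAR4* and *CYP86A1* rose late in all 3 mutants and had L*er* log2 ratios of 0.50, -0.39 and -0.12 at 1 h.

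Cell wall and root hair genes, 35 members, held many of the early changes of the group. Of the 35, 13 fell at 1 h in *della5x* (median -1.08), among the 26 members called there, and without replicate 1 of the *della5x* mock libraries of 1 h 8 fell. At 8 h 18 rose in *della5x*, 20 in *gai* and 19 in *ga4*, 16 of them in all 3 (medians 0.89, 0.82 and 0.70), and for 23 the response was larger at 8 h than at 1 h in *della5x*. Many of these genes encode proteins of growing root hair walls, the proline-rich protein *PRP1*, the extensins *EXT6* and *EXT13*, *MOP10*, the peroxidase *RHS19* and the endotransglucosylases *XTH12*, *XTH13* and *XTH26*. Of these, *PRP1* rose at 8 h in all 3 mutants, and the others were not called higher in any mutant. At 1 h in *della5x* *EXT6*, *EXT13*, *XTH12* and *XTH13* fell, while *PRP1*, *MOP10*, *RHS19* and *XTH26* did not pass. The early call of *EXT6* was kept in 1 of 6 fits with 1 library left out. The 300 bases upstream of *PRP1*, *EXT13*, *MOP10* and *EXT6* are shown because each of these root hair wall genes holds the core of the root hair element, a sequence known from promoters of root hair genes (TG and CACG with 4 or 5 bases of any kind between them, on either strand, in capitals). The sequences are from the TAIR10.1 genome, 5′ to 3′ on the strand of the gene, and end at the base before the annotated start of the gene.
PRP1 (chr1:20504601-20504900, plus strand): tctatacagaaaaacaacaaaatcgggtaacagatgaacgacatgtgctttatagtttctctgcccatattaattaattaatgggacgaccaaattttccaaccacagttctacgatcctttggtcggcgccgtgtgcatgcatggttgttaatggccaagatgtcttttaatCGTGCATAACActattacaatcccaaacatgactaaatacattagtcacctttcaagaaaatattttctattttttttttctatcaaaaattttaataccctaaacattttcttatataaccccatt
EXT13 (chr5:13433851-13434150, plus strand): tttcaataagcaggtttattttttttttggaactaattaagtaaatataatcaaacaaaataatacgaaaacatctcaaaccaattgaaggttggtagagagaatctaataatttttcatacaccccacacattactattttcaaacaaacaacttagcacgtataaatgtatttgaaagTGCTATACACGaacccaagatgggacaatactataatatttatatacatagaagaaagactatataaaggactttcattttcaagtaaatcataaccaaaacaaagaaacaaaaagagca
MOP10 (chr5:1629310-1629609, plus strand): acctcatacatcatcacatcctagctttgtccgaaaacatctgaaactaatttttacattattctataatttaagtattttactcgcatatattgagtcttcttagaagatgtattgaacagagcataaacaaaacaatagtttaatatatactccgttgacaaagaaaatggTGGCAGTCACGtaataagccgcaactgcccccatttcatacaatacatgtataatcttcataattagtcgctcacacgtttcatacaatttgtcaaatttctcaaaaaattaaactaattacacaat
EXT6 (chr2:10622096-10622395, plus strand): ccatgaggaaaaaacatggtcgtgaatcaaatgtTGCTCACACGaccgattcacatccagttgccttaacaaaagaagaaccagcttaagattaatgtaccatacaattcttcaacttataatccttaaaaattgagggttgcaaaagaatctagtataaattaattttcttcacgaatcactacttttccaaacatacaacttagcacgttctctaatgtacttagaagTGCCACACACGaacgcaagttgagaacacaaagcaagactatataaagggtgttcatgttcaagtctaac
The core was present upstream of 13 of the 35 wall and root hair genes (37.1%) and of 17.9% of all members, against 10.3% of 28003 genes with such a window and 13.2% of the other genes that were high at 8 h in L*er*. A match is a description of the letters and not a bound site.

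*PRP1* (AT1G54970, chr1:20504901-20506504) had 31.6, 32.5 and 42.3 CPM under mock conditions and 10.4, 2.81 and 7.23 CPM on NaCl in *della5x* at 1 h, with no overlap. The 8 h libraries had 12.8, 16.5 and 25.2 CPM under mock conditions and 128, 121 and 33.8 CPM on NaCl, also without overlap. Its log2 fold change was -2.39 ± 0.75 (SE, adjusted P = 0.064) at 1 h, short of the threshold, and 2.43 ± 0.47 (SE, adjusted P = 4.1e-04) at 8 h, by edgeR. It also rose in *gai* (1.65 ± 0.46, SE, edgeR adjusted P = 0.0093) and *ga4* (1.92 ± 0.47, SE, edgeR adjusted P = 0.0040). *EXT13* had 63.6, 39.8 and 42.3 CPM under mock conditions and 8.22, 1.53 and 6.07 CPM on NaCl in *della5x* at 1 h, a log2 fold change of -3.22 ± 0.55 (SE, adjusted P = 0.0035), by edgeR. At 8 h its libraries overlapped, with 44.2, 52.8 and 66.01 CPM under mock conditions and 98.7, 87.4 and 19.9 CPM on NaCl, and its late log2 fold changes of 0.39, 0.04 and -0.07 in *della5x*, *gai* and *ga4* did not pass. *XTH12* and *XTH13*, neighbours 1098 bases apart whose reads a counter could share between them, fell at 1 h in *della5x*, with log2 fold changes of -3.77 ± 0.70 and -3.39 ± 0.72 (SE) and edgeR adjusted P of 0.0055 and 0.011. *XTH13* had 12.4, 12.4 and 13.6 CPM under mock conditions and 1.61, 0.345 and 1.74 CPM on NaCl, with no overlap, and neither gene rose in a mutant at 8 h (*XTH13* edgeR adjusted P = 0.055, 0.099 and 0.31). The peroxidase gene AT3G49960 fell at 1 h (-1.55 ± 0.42, SE, edgeR adjusted P = 0.036) and rose at 8 h in *della5x* (1.33 ± 0.36, SE, edgeR adjusted P = 0.0068). The early call was kept in 2 of 6 fits with 1 library left out, as were the late calls in *gai* (0.98) and *ga4* (1.03).

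The late values of the root hair genes varied from library to library. In each genotype 1 of the 3 NaCl libraries of 8 h, the one numbered 3 in accession order, was far below the other 2. *PRP1* had 127, 118 and 48.4 CPM in L*er*, 128, 121 and 33.8 in *della5x*, 129, 125 and 59.2 in *gai* and 56.8, 73.1 and 23.6 in *ga4*. The summed level of 4 root hair markers that are not members (*SHV2*, *RHD6*, *EXPA7* and *PRP3*) moved with it, at 269, 266 and 149.6 CPM in L*er*, 306, 265 and 124 CPM in *della5x*, 310.3, 306 and 179 CPM in *gai* and 179, 212 and 106 CPM in *ga4*. Of the 4, *RHD6* alone did not show the low library. It had 33.9, 23.2 and 29.2 CPM in L*er* and 31.7, 27.5 and 31.2 CPM in *della5x*. In *gai* it had 25.6, 29.9 and 35.3 CPM and in *ga4* 25.9, 25.3 and 30.2 CPM. The same sum was highest, at 359.6 CPM, in replicate 1 of the L*er* mock libraries of 1 h, the library on which 72 members depend. This high sum came mainly from *PRP3*, which had 234 CPM there, against 75.01 and 71.2 CPM in replicates 2 and 3. The other markers differed little between these replicates. *SHV2* had 58.2, 49.4 and 50.4 CPM, *EXPA7* 47.4, 43.9 and 42.1 CPM and *RHD6* 20.2, 16.2 and 21.1 CPM. The sum was lowest, at 44.4 CPM, in replicate 2 of the *della5x* NaCl libraries of 1 h. The part of root hair content in these results was not tested. At 1 h in *della5x* 1 of the 4 markers fell, *PRP3* (-2.01, edgeR adjusted P = 0.030), and at 8 h *RHD6* rose in *della5x* and *ga4*. Of 12 root hair genes among the members, picked once their values were known, 4, 3 and 3 rose at 8 h in *della5x*, *gai* and *ga4* (medians 0.84, 0.44 and 0.28). Without replicate 3 of the NaCl libraries the counts were again 4, 3 and 3 and the medians 1.09, 0.75 and 0.52. In *gai* the median was 0.25 without replicate 1 or without replicate 2 of the NaCl libraries. In *ga4* 1 gene was called without replicate 2 of the mock libraries and without replicate 1 or replicate 2 of the NaCl libraries, and in the last case the median was -0.07. Of all 35 wall genes 19, 16 and 18 rose without replicate 3 of the NaCl libraries.

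**Figure D5:**
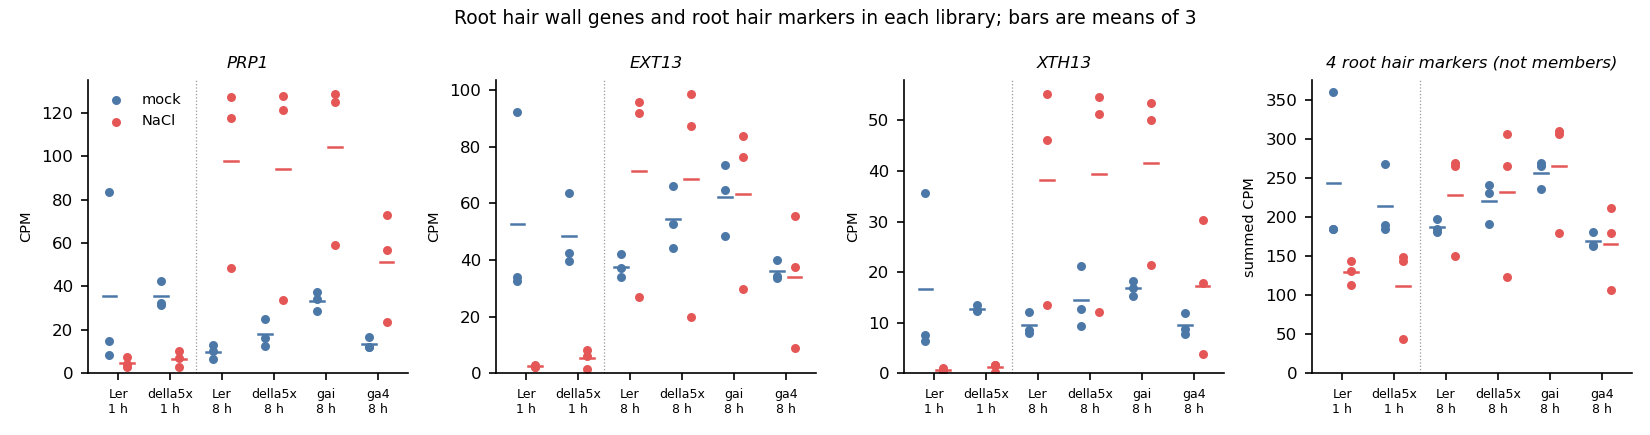
CPM of *PRP1*, *EXT13* and *XTH13* and the summed CPM of 4 root hair markers in each library, mock in blue and NaCl in red, with bars at the mean of 3 libraries and a dotted line between 1 h and 8 h. In every genotype 1 NaCl library of 8 h lies well below the other 2 in all 4 panels.

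*LAC13* and *LAC5*, laccase genes, did not show that library pattern. *LAC13* (AT5G07130, chr5:2209717-2212665) had 24.6, 27.5 and 27.9 CPM under mock conditions and 10.7, 10.8 and 12.8 CPM on NaCl in *della5x* at 1 h. The 8 h libraries had 30.99, 28.6 and 43.6 CPM under mock conditions and 112, 114 and 109 CPM on NaCl. It was lower in all NaCl libraries at 1 h (-1.22 ± 0.25, SE, edgeR adjusted P = 0.0090) and higher in all at 8 h (1.75 ± 0.17, SE, edgeR adjusted P = 6.5e-08). The difference between the times, 2.98 ± 0.21 (SE, adjusted P = 2.2e-04), had the smallest edgeR P among the members. *LAC5* rose by 2.04 ± 0.14, 2.04 ± 0.14 and 1.91 ± 0.14 (SE) in *della5x*, *gai* and *ga4* at 8 h, with edgeR adjusted P of 5.5e-10, 8.2e-10 and 2.0e-09. *PME2*, a pectin methylesterase gene, fell at 1 h (-0.93 ± 0.17, SE, edgeR adjusted P = 0.0052) and rose at 8 h by 0.89, 1.11 and 1.44. *XTH19* rose at 8 h in all 3 mutants, with 1.93 ± 0.13 (SE) in *gai*, 1.92 ± 0.13 in *ga4* and 1.196 ± 0.13 in *della5x* (edgeR adjusted P = 3.5e-10, 3.5e-10 and 1.9e-07). The SKU5-like gene *sks9* rose in *gai* (4.38 ± 0.81, SE, edgeR adjusted P = 2.7e-04) and *ga4* (2.89 ± 0.73, SE, edgeR adjusted P = 0.0047). In *della5x* it had 2.72, 0.930 and 7.15 CPM under mock conditions and 7.36, 8.64 and 6.84 CPM on NaCl, which did not pass. The pectin methylesterase gene *ATPMEPCRB* rose in *gai* (2.70, edgeR adjusted P = 0.0099, kept in 4 of 6 fits with 1 library left out), had 1.16 in *della5x* and 0.70 in *ga4*, and its response did not differ between the mutants by edgeR's adjusted P. Of 33 XTH genes, 4 of them members, 1 rose and 10 fell of 28 tested at 1 h in *della5x*, and 8 rose and 8 fell of 29 at 8 h, and the median of the 29 was 0.40. In *gai* and *ga4* 7 of the 29 XTH genes rose and 7 fell at 8 h. Of the 25 tested that were not members 7 rose and 8 fell in *della5x*, and 6 rose and 7 fell in each of *gai* and *ga4*. None of 37 expansin superfamily genes was a member, and at 1 h 10 of 24 tested rose and 1 fell in *della5x*, where 1328 of all 20073 genes rose and 707 fell. At 8 h 8, 12 and 11 of 23 expansin genes rose and 0, 1 and 2 fell in *della5x*, *gai* and *ga4*. Of all 20355 genes tested at 8 h, 2795, 2166 and 2168 rose and 1838, 1700 and 1833 fell in these mutants.

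Defence genes made up 23 members, of which 1 fell at 1 h in *della5x* and 18 rose at 8 h in *della5x*, 13 in *gai* and 12 in *ga4*, 10 of them in all 3 (medians 1.55, 1.11 and 0.99). The gene called at 1 h was *UPI*, a protease inhibitor (log2 fold change -0.99994, edgeR adjusted P = 0.0077). It then rose by 1.55, 1.03 and 0.82 in *della5x*, *gai* and *ga4*, calls that were kept in 6, 4 and 1 of 6 fits with 1 library left out. *GRI* (AT1G53130, chr1:19794723-19795544), of the Stig1 peptide family, had 10.8, 11.7 and 11.7 CPM under mock conditions and 7.09, 5.87 and 2.78 CPM on NaCl in *della5x* at 1 h, all lower on NaCl. At 8 h it had 6.06, 3.94 and 5.29 CPM under mock conditions and 36.9, 21.1 and 30.1 CPM on NaCl, all higher on NaCl. It rose at 8 h by 2.58 ± 0.29, 3.13 ± 0.29 and 2.94 ± 0.29 (SE) in *della5x*, *gai* and *ga4* on the log2 scale, with edgeR adjusted P of 3.8e-07, 4.0e-08 and 1.0e-07. The difference between the times in *della5x* was 3.70 ± 0.45 (SE, adjusted P = 0.0015), by edgeR. *FRK1*, a receptor-like kinase gene, and *WRKY29*, known as targets of bacterial flagellin signalling, rose in all 3 mutants, *FRK1* by 1.88, 1.85 and 2.36 (edgeR adjusted P = 0.010, 0.017 and 0.0031) and *WRKY29* by 1.21, 1.16 and 0.91 (7.1e-04, 0.0012 and 0.0079). The *FRK1* calls in *della5x* and in *gai* were each kept in 3 of 6 fits with 1 library left out, and the *WRKY29* call in *ga4* was lost without replicate 2 of the *ga4* mock libraries. Their upstream 300 bases are shown with the W-box core that WRKY factors bind, TTGACC or TTGACT on either strand, in capitals.
FRK1 (chr2:8329945-8330244, minus strand): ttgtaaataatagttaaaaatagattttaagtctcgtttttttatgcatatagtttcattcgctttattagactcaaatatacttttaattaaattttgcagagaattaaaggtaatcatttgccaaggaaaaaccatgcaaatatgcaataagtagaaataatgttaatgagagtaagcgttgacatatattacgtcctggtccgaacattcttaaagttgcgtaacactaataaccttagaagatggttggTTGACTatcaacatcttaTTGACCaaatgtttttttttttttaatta
WRKY29 (chr4:12291332-12291631, plus strand): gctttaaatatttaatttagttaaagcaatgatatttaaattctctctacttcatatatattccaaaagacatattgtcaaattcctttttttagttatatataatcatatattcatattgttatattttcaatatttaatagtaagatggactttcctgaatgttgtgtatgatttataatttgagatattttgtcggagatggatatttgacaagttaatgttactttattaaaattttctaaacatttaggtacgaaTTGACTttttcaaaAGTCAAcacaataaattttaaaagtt
Such a match was present upstream of 14 of the 23 defence genes (60.9%) and of 40% of the members, against 32.3% of all genes and 34.2% of the other genes that were high at 8 h in L*er*. The glutathione transferase gene *GSTF6* rose in all 3 mutants (2.30, 2.26 and 2.39), and its neighbour *GSTF7*, 1108 bases away and similar in sequence, did not pass in any (1.602, 2.32 and 0.26). *TAT3*, a tyrosine aminotransferase gene of wound responses, had 1.25, 1.196 and 1.57 CPM under mock conditions and 0.870, 8.14 and 19.4 CPM on NaCl in *della5x* at 8 h, where 1 NaCl library was not above the mock libraries. Its edgeR call (log2 fold change 2.86 ± 0.99, SE, adjusted P = 0.031) was kept in 2 of 6 fits with 1 library left out. The methyltransferase gene *FAMT* had no mock count in *gai* or *ga4* at 8 h, where its NaCl level was at least 16.1-fold and 94.6-fold higher against a limit of 3 counts over the group. *ALD1*, of systemic resistance, rose in *della5x* (1.54, edgeR adjusted P = 0.014, kept in 4 of 6 fits with 1 library left out). It had 9.61, 5.41 and 6.04 CPM under mock conditions and 4.03, 5.08 and 5.13 CPM on NaCl in *gai*, the libraries in the opposite order.

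The hormone, peptide and heat shock genes numbered 8, and 6 rose at 8 h in *della5x*, 6 in *gai* and 5 in *ga4* (medians 1.59, 1.46 and 1.15). The small heat shock protein gene *HSP17.6A* had 1.43, 1.001 and 3.11 CPM under mock conditions and 3.39, 5.08 and 0.463 CPM on NaCl in *della5x* at 1 h, which overlapped. At 8 h it had 1.02, 1.24 and 0.953 CPM under mock conditions and 12.5, 13.2 and 53.1 CPM on NaCl, which did not. Its late log2 fold changes were 4.65 ± 0.56, 4.40 ± 0.60 and 5.34 ± 0.69 (SE), with edgeR adjusted P of 1.4e-06, 8.5e-06 and 3.9e-06. *PSK1*, the precursor of a phytosulfokine growth peptide, was the 1 gene of this role that fell at 1 h in *della5x* (-0.75 ± 0.15, SE, edgeR adjusted P = 0.0094), and it rose by 1.08, 0.92 and 0.93 at 8 h. The chaperone gene *HSP90.1* rose by 1.62, 1.06 and 1.14, and the SAUR-like genes AT2G36210 and AT5G10990 rose in all 3 mutants as well. *CYP707A3*, which inactivates abscisic acid, had an L*er* log2 ratio of -2.99 at 1 h, but in *della5x* its value was -0.55 ± 0.53 (SE) at 1 h and 1.55 ± 0.64 (SE) at 8 h, and neither passed.

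The 70 members without one of these roles included 50 that rose at 8 h in *della5x*, 39 in *gai* and 38 in *ga4*, 28 of them in all 3, and 8 that fell at 1 h in *della5x*. The oxygenase gene AT2G48080 rose by 2.51 ± 0.27, 2.31 ± 0.27 and 2.43 ± 0.27 (SE) in *della5x*, *gai* and *ga4* (edgeR adjusted P = 2.8e-07, 1.3e-06 and 6.3e-07). AT5G60520, annotated as similar to late embryogenesis abundant proteins, fell at 1 h (-1.37 ± 0.23, SE, edgeR adjusted P = 0.0034) and rose by 1.07, 1.03 and 1.28 at 8 h. AT5G38910, which had L*er* log2 ratios of -3.55 at 1 h and 2.74 at 8 h, encodes a cupin-like protein. AT5G38910 did not meet the rule without replicate 1 of the L*er* mock libraries of 1 h. At 8 h it had 0, 0 and 0.286 CPM under mock conditions and 1.97, 2.88 and 15.8 CPM on NaCl in *della5x*, and 0, 0.102 and 16.3 CPM under mock conditions and 3.50, 1.44 and 6.91 CPM on NaCl in *ga4*. It was close to 0 in the mutant mock libraries of 8 h other than 1 of *ga4*. It rose in *della5x* (6.09 ± 1.62, SE, edgeR adjusted P = 0.0061). In *gai* the ratio was 76.7 on 1 mock count, with an exact 95% counting interval of 13.4 to 3067, and the fitted response did not pass (edgeR adjusted P = 0.057). The transcription factor gene *MYB45* rose in the 3 mutants (1.21, 0.84 and 0.81, edgeR adjusted P = 1.1e-06, 1.1e-04 and 1.7e-04), and *NAC099* had values of 0.08, 0.27 and -0.01 that did not pass.

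The members lay on all chromosomes, with 46, 38, 27, 35 and 49 on chromosomes 1 to 5, and 14 of them formed 7 pairs within 10000 bases of each other. The pairs were *GSTF7* and *GSTF6*, *UMAMIT14* and AT2G39518, AT2G43620 and AT2G43670, *AKN2* and *CYP79B2*, *DiT1* and AT5G12880, AT5G38020 and AT5G38030, and *XTH12* and *XTH13*. The G-box CACGTG was upstream of 3.59% of the members and 7.07% of all genes, the auxin response element TGTCTC upstream of 10.3% and 12.97%, and a core of the nitrate-responsive element upstream of 0% and 0.157%. Among the other genes that were high at 8 h in L*er* these shares were 12.1%, 12.05% and 0.0582%.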

How the data were processed

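RNA of the lower 1 cm of the roots was isolated with the RNeasy Plant Mini Kit and sequenced as paired-end libraries. The authors trimmed the reads with fastp, aligned them to TAIR10 with Hisat2 and counted them with HTSeq-Count, and they deposited 1 table of raw counts per gene for 36 libraries, which was used as deposited. The counting mode and the strand setting are not given in the sources used here, so reads of near-identical or overlapping genes may have been split between them. Libraries held 16772984 to 23811804 counts. Groups were taken from the labels, and the replicate numbers follow accession order and were not used to pair libraries.

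CPM was computed as the count divided by the library total. Tests were made with edgeR 4.0.16 (glmQLFit and glmQLFTest, filterByExpr with a minimum count of 10, TMM) in R 4.3.3, with 1 coefficient per group, on all 12 libraries of 1 h, all 24 libraries of 8 h, the 12 mock libraries of 8 h or the 12 *della5x* libraries, with Benjamini-Hochberg adjustment of *P* across every gene in the fit. Calls needed a log2 fold change beyond 0.5 and an adjusted *P* below 0.05. All 195 members passed the filter, and 192 in the mock libraries of 8 h. The count tests were also run on simulated counts with known changes and the same spread setting for every gene. That run did not cover libraries that stand apart from their group. Alternatives were DESeq2 1.42.0, median-ratio size factors, no filter, fits without L*er*, other limits of the rule and the leaving out of each library.

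The members, the roles and the gene lists were chosen with earlier results of these data known. Genes named were the 12 members in which the smaller of the 2 L*er* responses was largest, members of the functional lists, the 3 members with the smallest *P* in each direction of each comparison, members whose libraries lay in the opposite order and the genes nearest to each limit. Any other gene was picked for mention once its values were known. Gene names, positions and upstream sequences are from RefSeq's annotation of TAIR10.1, whose nuclear chromosome sequences are those of TAIR10.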

Additional observations from a re-analysis of the deposited data

Results flagged for a closer look

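The response to NaCl differed between the 2 times in *della5x*, the genotype outside the selection that was sampled at both. It was larger at 8 h than at 1 h for 98 of the 195 members and smaller for 0 in the test of the difference itself with edgeR, and the median difference was 1.78 on the log2 scale. DESeq2 called 127 larger and 0 smaller, and 63 of the 98 edgeR calls held whichever *della5x* library was left out.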

How the results depend on the processing

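No paired analysis was possible because the labels give no replicate numbers that could tie libraries of different groups to each other, and numbers in accession order are only names. Of 86 counts and shares under alternatives other than leaving out a tested library, 73 stayed within 1.5 times the main value. The rule chose 64 genes at a limit of 1 in both directions and 129 at a minimum mean of 10 CPM. DESeq2 called 44 members lower in *della5x* at 1 h and 1 member between *gai* and *della5x* in the late response. Under mock conditions it called 13 members between *gai* and *ga4* at 8 h and 58 between the times in *della5x*. By edgeR, 2 were called between *gai* and *ga4* under mock conditions in the fit without L*er* and 7 without a filter. Shares over the members kept without replicate 1 of the L*er* mock libraries of 1 h, chosen after seeing the data, were 20.33% for the early fall in *della5x*, 6.557% for *ga4* against *della5x* and 3.279% for *gai* against *ga4* under mock conditions. The early share was 23.17% over the members kept without any 1 L*er* library, and 4.918% of the members at a limit of 1 differed between *ga4* and *della5x* under mock conditions. The cause of these shifts was not tested.

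With 1 library left out, the rule chose 133 to 276 genes. In *della5x* 17 to 51 members fell at 1 h, 121 to 145 rose at 8 h and 64 to 150 had a larger response at 8 h, while 102 to 122 rose in *gai* and 103 to 124 in *ga4*. The late responses differed for 0 members throughout. Under mock conditions 13 to 31 members differed between *gai* and *della5x*, 12 to 32 between *ga4* and *della5x*, 0 to 6 between *gai* and *ga4* and 4 to 20 between the times in *della5x*. Of 61 single-gene results none reversed in 619 values, and the calls of *MOP10* and *EXT13* between *gai* and *ga4* were lost in the fit without L*er*.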
